A study of Mus musculus with 4 samples.

Results

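The oligoadenylate synthetase family was followed through mouse oocyte growth by taking every gene of the deposited table whose symbol is Oas1 with a letter from a to h, Oas2 or Oas3. This gives 10 genes of the 25587 listed. All 10 lie side by side on chromosome 5 of GRCm38, within 191.3 kb (chr5:120730333-120921652).

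RNA-Seq was performed on total RNA, after depletion of ribosomal RNA, from wild-type oocytes of the mouse strain C57BL/6Babr, on a C57BL/6 background, aged 5 to 20 days. The labels give this age range for every stage, and by the study's methods the later stages came from older mice, so stage and age of the mice cannot be told apart. There were 4 groups with 1 library each: non-growing oocytes (NGO), a pair of growing stages (GO1 and GO2) and fully grown oocytes (FGO), which the labels call GV oocytes. NGO and FGO libraries were made by dUTP marking of the second strand, whereas GO1 and GO2 libraries were made with the ScriptSeq kit. Changes are therefore given from NGO to FGO and from GO1 to GO2, and between a dUTP and a ScriptSeq library the stage and the protocol cannot be told apart. Levels are RPKM, which are reads scaled by the length of the exons and by the total of the library. With 1 library per stage there is no replicate and no test, and each value has a 95 % interval for counting error only. Library totals behind the values exceed the number of reads the study sequenced, so counts are inflated and the intervals and the floor of 3 counts are too small by an unknown factor. With counts divided by 4, a check chosen after seeing the data, 68 of 74 pairs of member levels that were apart stayed apart. The exceptions that touch a statement are given beside it. This check covered only the members, in libraries where they had counts, so all other genes have only the intervals that are too small.

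Oligoadenylate synthetases are sensors of double-stranded RNA, the kind of RNA that many viruses make. An active enzyme bound to such RNA joins ATP into short chains of adenylates linked from 2′ to 5′, which act as a signal that leads to the breakdown of cellular and viral RNA. Interferon raises the transcription of the antiviral members in most tissues, while the mouse Oas1 gene has been copied several times, and the copies Oas1c, Oas1d and Oas1e are known from the ovary. Oas1d protein has been described as an oocyte protein without synthetase activity that lowers the activity of Oas1a when both are present.

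The promoters are shown first because the copies differ in them. The RefSeq promoter table for GRCm38.p6 holds 6 of the 10 genes (Oas1a, Oas1g, Oas3, Oas1c, Oas1h and Oas1f), and for each the 120 bases before the RefSeq start are printed from 5′ to 3′ on the strand of the gene. Oas1b, Oas1d, Oas1e and Oas2 are not in that table. Capitals mark matches on either strand to GAAANNGAA, the core of the interferon-stimulated response element, where N is any base.
Oas1a (chr5:120907526-120907645, minus strand): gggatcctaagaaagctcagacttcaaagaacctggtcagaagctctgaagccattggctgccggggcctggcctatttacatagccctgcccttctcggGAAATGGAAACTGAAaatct
Oas1g (chr5:120887614-120887733, minus strand): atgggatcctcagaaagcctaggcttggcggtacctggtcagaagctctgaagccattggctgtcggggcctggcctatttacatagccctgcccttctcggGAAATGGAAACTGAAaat
Oas3 (chr5:120777660-120777779, minus strand): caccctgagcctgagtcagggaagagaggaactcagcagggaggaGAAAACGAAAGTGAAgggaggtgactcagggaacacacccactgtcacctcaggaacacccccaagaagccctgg
Oas1c (chr5:120812515-120812634, minus strand): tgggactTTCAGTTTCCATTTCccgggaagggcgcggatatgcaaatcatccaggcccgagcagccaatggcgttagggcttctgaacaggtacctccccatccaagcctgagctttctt
Oas1h (chr5:120861302-120861421, plus strand): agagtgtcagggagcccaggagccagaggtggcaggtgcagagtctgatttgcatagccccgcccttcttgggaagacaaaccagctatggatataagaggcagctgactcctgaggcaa
Oas1f (chr5:120847247-120847366, plus strand): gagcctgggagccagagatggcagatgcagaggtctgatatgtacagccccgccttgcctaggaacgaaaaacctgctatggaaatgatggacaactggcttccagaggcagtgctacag

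Over the whole window of the table, from 250 bases before the start to 50 after it, 8.56 % of all 32851 promoters hold at least 1 match to GAAANNGAA on either strand. Oas1a, Oas1g, Oas3 and Oas1c each hold 2 matches, which overlap to form a run of 15 bases. In Oas1a the run begins 20 bases before the start and in Oas1g 18 bases before it, and both have the same letters, GAAATGGAAACTGAA. Oas1c holds these same 15 letters on the opposite strand, 113 to 99 bases before its start. The run of Oas3, GAAAACGAAAGTGAA, begins 75 bases before its start. Of all promoters in the table, 7 hold the run of Oas1a and 1 holds the run of Oas3.

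Oas1c and Oas1b point away from each other, with 120 bases between their first bases in the deposited table. The run in the Oas1c promoter lies at the far end of that gap, 8 to 22 bases before the first base of Oas1b. Neither Oas1h nor Oas1f has a match to GAAANNGAA. Each of them holds 2 matches to the E box CANNTG, which no other printed promoter holds, but 72.3 % of all promoters hold it. The motifs TAATTG (8.0 % of promoters) and TATAAA (13.6 %) were found in none of the 6. A match is a string of letters and does not show that a factor binds.

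Of the 250 bases before the start, 244 could be aligned base to base between Oas1a and Oas1g, and 86.9 % of these were identical. Between Oas1f and Oas1h 234 could be aligned, and 82.5 % of these were identical. In the other 13 pairs of these promoters the identity was between 53.7 and 65.7 %, over 204 to 223 aligned bases.

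Along the chromosome the genes lie in the order Oas2, Oas3, Oas1e, Oas1c, Oas1b, Oas1f, Oas1h, Oas1g, Oas1a and Oas1d, so that the copies known from ovary do not form a block of their own. Oas1e and Oas1c are adjacent, but Oas1d is at the other end, beside Oas1a. The Oas1b gene is given as a polymorphic pseudogene in GENCODE, and the other 9 are given as protein coding.

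**Figure D1:**
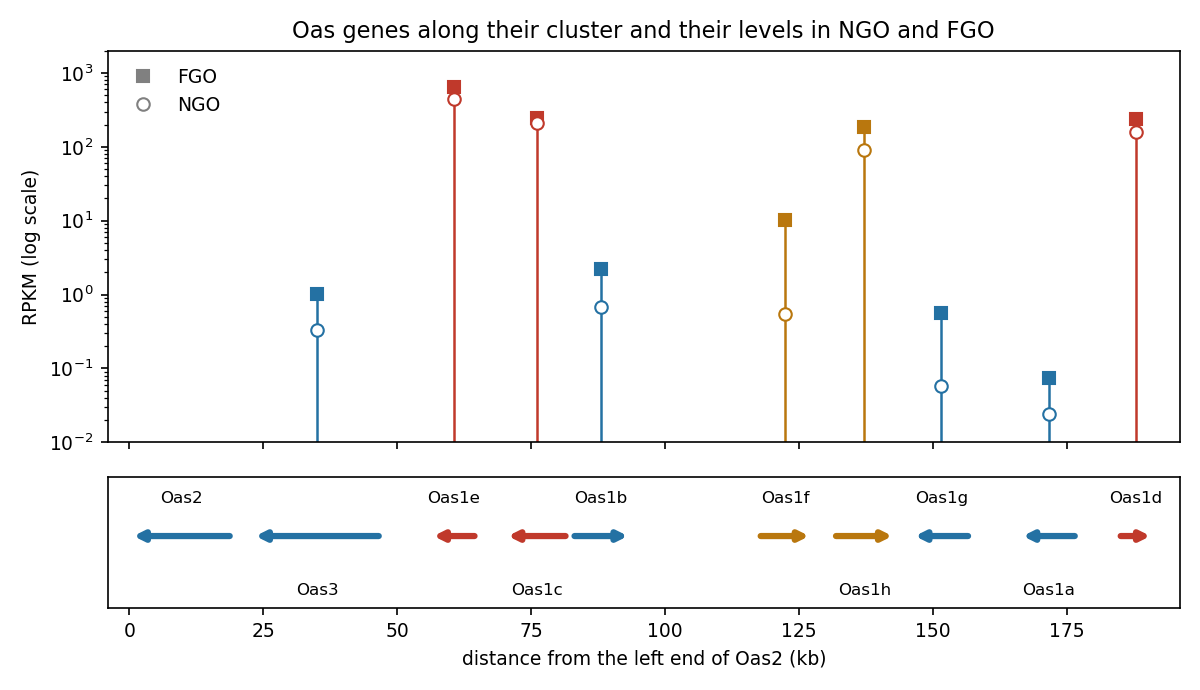
Levels in NGO (open circles) and FGO (filled squares) on a log axis of RPKM, placed at the middle of each gene, with the genes drawn below to scale as arrows in the direction of transcription against distance in kb from the left end of Oas2. Red marks the copies known from ovary, orange Oas1f and Oas1h, and blue the antiviral members. Oas1e, Oas1c, Oas1h and Oas1d stand above 90 RPKM. Of these only Oas1e and Oas1c are adjacent, and the genes that separate the others have lower levels. Oas2 has no marker because it was listed at 0.

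The coding sequences of the Oas1 copies fall nearest to each other in a different order from their places on the chromosome. Oas1d and Oas1e were 90.7 % identical, Oas1c and Oas1e 86.4 %, and Oas1c and Oas1d 85.6 %. Against Oas1a, Oas1b and Oas1g, these 3 copies had an identity of between 74.2 and 76.6 %. Oas1f was nearest to Oas1c (85.9 %), and Oas1h was nearest to Oas1e, at 79.1 %. Oas1a and Oas1g were 96.7 % identical.

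**Figure D2:**
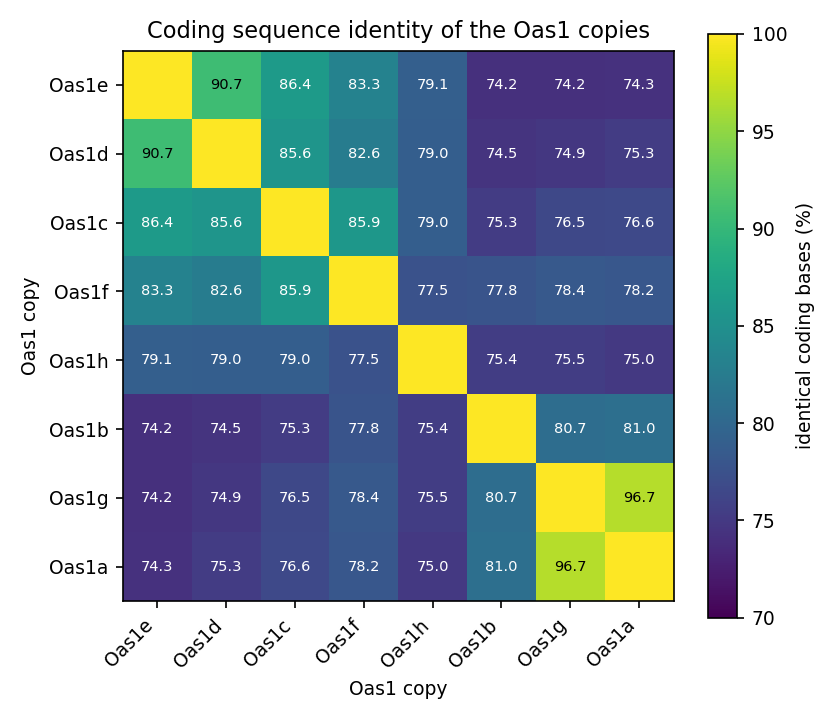
Percentage of identical bases in pairwise alignments of the annotated coding sequences of the 8 Oas1 copies, with brighter squares for higher identity. Oas1e, Oas1d, Oas1c and Oas1f form a block between 82.6 and 90.7 %, and Oas1a and Oas1g stand out as a pair at 96.7 %.

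Such likeness bears on what the reads can tell. In the annotated transcripts, 40.9 % of the 100-base windows of Oas1a and 38.2 % of those of Oas1g were also in the other gene, and with windows of 50 bases the shares (matches to any other gene) were 57.6 and 54.7 %. The authors kept 1 alignment for a read with several, so counts of these genes are uncertain and their sum is also given. For the other 8 genes at most 4.47 % of 100-base windows recurred elsewhere, and for Oas1c these were in Gm43069, an antisense gene of GENCODE that lies across Oas1e and Oas1c. How the values treated strand is not given in the sources used here, so reads from the windows of Oas1c shared with that antisense gene cannot be assigned to one of them. None of the 100-base windows of Oas1e was shared. With windows of 50 bases the shares were higher, 16.3 % for Oas1c, 11.5 % for Oas1e and 6.24 % for Oas1d. The genes that shared most of those of Oas1e were Oas1c, Oas1d and Gm43069. For the remaining genes at most 3.41 % of 50-base windows (Oas1b) were shared.

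Of the 10 members, 9 were detected in NGO, GO2 and FGO, where detected means at least 3 counts, and 8 in GO1. Of all 25587 genes, 16564 to 18105 per library were detected by this rule. Oas1a passed it with 5 counts in NGO and 4 in GO2. At a minimum of 10 counts, 8 members were detected in NGO, GO1 and GO2 and 9 in FGO. An RPKM of 1 was reached by 4 members in NGO, 5 in GO1, 6 in GO2 and 7 in FGO, against 36.6 to 38.5 % of all genes. Between the highest and the lowest member with a read the level in FGO ran from 652 to 0.0754 RPKM.

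Oas1e (chr5:120786312-120795530) was the most abundant member in each library. It had 446 RPKM (442.8–448.8, 84550 counts) in NGO, 388 (385.5–390.8, 84402 counts) in GO1, 462 (459.6–463.8, 191138 counts) in GO2 and 652 (648.6–655.6, 133789 counts) in FGO. Ranked among all listed genes, it was in place 32 in NGO, 42 in GO1, 28 in GO2 and 19 in FGO. It thus stood among the 50 most abundant genes of each oocyte library.

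Oas1c (chr5:120800194-120812514) had 212 RPKM (209.9–213.4) in NGO, 106 (105.0–107.3) in GO1, 139 (138.4–140.3) in GO2 and 249.7 (247.9–251.5) in FGO. Oas1d (chr5:120914536-120921652), the copy described as an inhibitor of Oas1a, had 158 RPKM (156.0–159.3) in NGO, 123 (121.8–124.5) in GO1, 161 (159.6–161.8) in GO2 and 236 (233.6–237.5) in FGO. Oas1c was thus above Oas1d in the dUTP libraries and below it in the ScriptSeq libraries, in each case with intervals that do not overlap. As this change of order follows the protocol, stage and protocol cannot be told apart for it.

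Oas1h (chr5:120861421-120873512), whose function in the oocyte is not described here, had 92.1 RPKM (90.7–93.4) in NGO, 52.9 (52.0–53.9) in GO1, 83.9 (83.0–84.8) in GO2 and 187 (185.5–189.2) in FGO. It was the fourth member in each library and reached place 98 of all genes in FGO, where it came within 1.26-fold of Oas1d.

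Oas1f (chr5:120847367-120857986) was far below these 4 genes. Its level was 0.550 RPKM (0.442–0.676, 90 counts) in NGO, 1.41 (1.24–1.59, 264 counts) in GO1, 3.81 (3.61–4.02, 1360 counts) in GO2 and 10.2 (9.75–10.7, 1809 counts) in FGO. None of these intervals overlap, and Oas1f was the 1 member whose value was higher at each step from NGO to GO1, GO2 and FGO, a pattern also seen in 11.3 % of the 16682 genes that had 20 or more counts in all. Of the 3 steps, 2 cross from one protocol to the other. Its place among all genes went from 10884 in NGO to 3548 in FGO.

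The antiviral members were close to or under 1 RPKM through most of growth. Oas1b (chr5:120812635-120824158), a member known for resistance to flaviviruses in mice that carry an intact allele, had 0.671 RPKM (0.563–0.794) in NGO, 0.616 (0.519–0.725) in GO1, 1.15 (1.05–1.26) in GO2 and 2.24 (2.05–2.45) in FGO. Oas3 (chr5:120753098-120777661), the largest synthetase, with 16 exons, had 0.332 RPKM (0.287–0.383) in NGO, 0.177 (0.146–0.212) in GO1, 0.326 (0.295–0.359) in GO2 and 1.01 (0.932–1.09) in FGO. For both genes FGO was above the other 3 libraries, with no overlap of the intervals.

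Oas1g (chr5:120876142-120887613) had 0.0580 RPKM (0.0324–0.0956, 15 counts) in NGO, 0.0472 (0.0258–0.0792, 14 counts) in GO1, 0.106 (0.0811–0.137, 60 counts) in GO2 and 0.568 (0.483–0.664, 159 counts) in FGO. Oas1a (chr5:120896256-120907521), the copy most studied as an antiviral enzyme, had 5 counts in NGO, 0 in GO1, 4 in GO2 and 17 in FGO. Its highest level was 0.0754 RPKM (0.0439–0.121) in FGO, and 0 counts in GO1 allow up to 0.0126 RPKM. Both genes had their lowest value in GO1 and their highest in FGO. For Oas1a the level allowed in GO1 lies above its level in GO2 (0.00879 RPKM), and the intervals of NGO and FGO overlap. With counts divided by 4, those of GO2 and FGO overlap as well. For Oas1g the intervals of NGO and GO1 overlap.

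Oas2 (chr5:120730333-120749853) was listed at 0 in all 4 libraries. At 3 counts, the most that a count of 0 allows, its level would be 0.00609 RPKM in NGO, 0.00532 in GO1, 0.00279 in GO2 and 0.00563 in FGO. No Oas2 transcript was detectable at this depth.

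**Figure D3:**
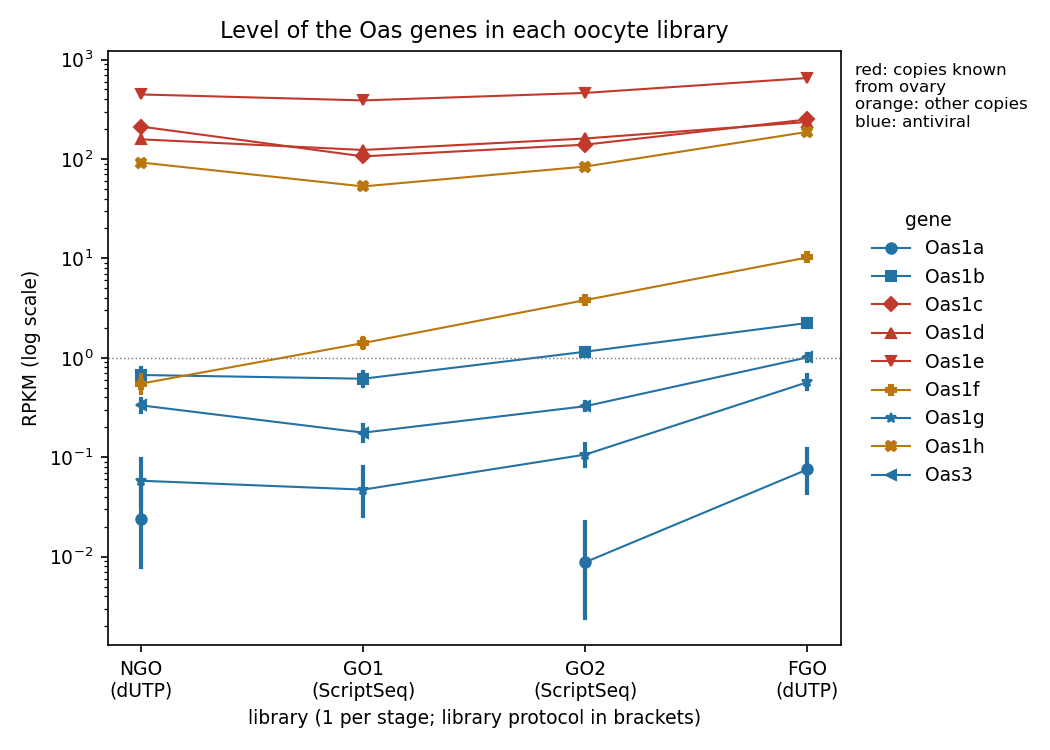
Level of each member with a read, in RPKM on a log axis, in the 4 libraries in order of growth, with vertical bars for the 95 % counting interval and a dotted line at 1 RPKM. Oas1e, Oas1c, Oas1d and Oas1h stay between 52.9 and 652 RPKM, Oas1f climbs from 0.550 to 10.2, the antiviral genes stay at or below 2.24, and Oas1a has no point in GO1, where it was listed at 0.

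The order of the levels in FGO was Oas1e, Oas1c, Oas1d, Oas1h, Oas1f, Oas1b, Oas3, Oas1g and Oas1a, and the interval of each was clear of its neighbours. In NGO the order was the same except that Oas1b stood before Oas1f, with overlapping intervals. The intervals of Oas1g and Oas1a also overlapped in NGO. In GO1 and GO2 every neighbouring pair was apart. With counts divided by 4, the intervals of Oas1f and Oas3 in NGO and those of Oas3 and Oas1g in GO1 overlapped.

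All 10 members together had 909 RPKM in NGO, 673 in GO1, 851 in GO2 and 1339 in FGO, and took 0.304 %, 0.212 %, 0.275 % and 0.415 % of the counts on genes. Oas1c, Oas1d and Oas1e made up 89.7 % of the summed level in NGO, 91.8 % in GO1, 89.5 % in GO2 and 85.0 % in FGO. The 5 antiviral members made up 0.119 %, 0.125 %, 0.187 % and 0.291 %. Nearly all synthetase RNA that the libraries held thus came from the copies known from ovary and from Oas1h, which by itself made up 10.1 % in NGO, 7.87 % in GO1, 9.86 % in GO2 and 14.0 % in FGO.

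Neighbouring genes could stand far apart in level. Oas1c was 315 times as abundant as its divergent neighbour Oas1b in NGO, 172 times in GO1, 121 times in GO2 and 111 times in FGO. Oas1h was 167 times as abundant as the adjacent Oas1f in NGO, although 82.5 % of the aligned bases of their promoters were identical. The ratio was 37.6 in GO1, 22.0 in GO2 and 18.3 in FGO. In contrast, the ratio of Oas1e to Oas1d stayed between 2.77 and 3.15.

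The genes on either side of the cluster did not have levels like those of its abundant members. Rasal1 had between 0.127 and 1.04 RPKM, Dtx1 at most 0.0485, and Rph3a between 1.25 and 4.44.

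Changes from NGO to FGO are log2 values for the 15268 genes whose counts in both libraries summed to 20 or more, after scaling the libraries by their trimmed mean of ratios. Of these genes, 8.57 % were higher by at least 4-fold and 5.54 % were lower, and the median change was -0.01. Among the members, 9 had 20 counts, 2 of them (Oas1f and Oas1g) were higher by at least 4-fold, and none was lower. All 9 had a change above 0, against 49.5 % of all genes, with a median of 1.53. That median is the value of Oas1a, whose direction is uncertain at its few counts. A change of at least 2-fold upwards was seen in 6 members and in 17.7 % of all genes. The 6 include Oas1a and also Oas1h, whose change was 0.94 with library totals alone.

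Oas1f had the largest change of the family, with a log2 change of 4.25 (3.96 to 4.59), which is 19.1-fold. Oas1g followed at 3.26 (2.58 to 4.22), or 9.60-fold. The counts of Oas1a and Oas1g together went from 20 to 176, a log2 change of 3.01 (2.41 to 3.82), so the pair as a whole passed 4-fold. That the call falls on Oas1g and not on Oas1a depends on how their shared reads were split. With counts divided by 4 the interval of Oas1g was 1.84 to 5.37, which reaches below 4-fold, and that of Oas1f was 3.66 to 4.95.

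Oas1b (1.78, interval 1.51 to 2.08), Oas3 (1.65, 1.42 to 1.90) and Oas1a (1.53, 0.21 to 3.50) were below 4-fold, although the intervals of Oas1b and Oas1a reach past it. With counts divided by 4 the interval of Oas1a was -1.39 to 6.43, so no direction is shown for this gene, and that of Oas3 (1.18 to 2.15) also reached past 4-fold. Oas1h changed by 1.08 (1.05 to 1.10). The 3 copies known from ovary had the smallest changes, 0.63 (0.61 to 0.65) for Oas1d, 0.60 (0.59 to 0.61) for Oas1e and 0.29 (0.28 to 0.31) for Oas1c. The members with the highest levels thus had the smallest log2 changes in this pair.

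From GO1 to GO2, 1.51 % of 15747 genes were higher by at least 4-fold and 0.254 % were lower, with a median of 0.02. None of the 8 members with 20 counts passed 4-fold in either direction, all 8 had a change above 0 (51.5 % of all genes did) and their median was 0.74. Oas1f again had the largest change, 1.40 (1.21 to 1.60) or 2.64-fold, followed by Oas1g at 1.10 (0.28 to 2.09, or -0.59 to 3.35 with counts divided by 4). These 2 were the members at 2-fold or more, a change that 6.87 % of all genes had.

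The other changes in this pair were 0.87 (0.60 to 1.15) for Oas1b, 0.85 (0.55 to 1.16) for Oas3, 0.63 (0.60 to 0.66) for Oas1h, 0.36 (0.34 to 0.38) for Oas1c, 0.35 (0.33 to 0.37) for Oas1d and 0.22 (0.21 to 0.23) for Oas1e. Oas1a and Oas1g together went from 14 to 64 counts, a log2 change of 1.15 (0.38 to 2.18). The copies known from ovary again changed least.

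**Figure D4:**
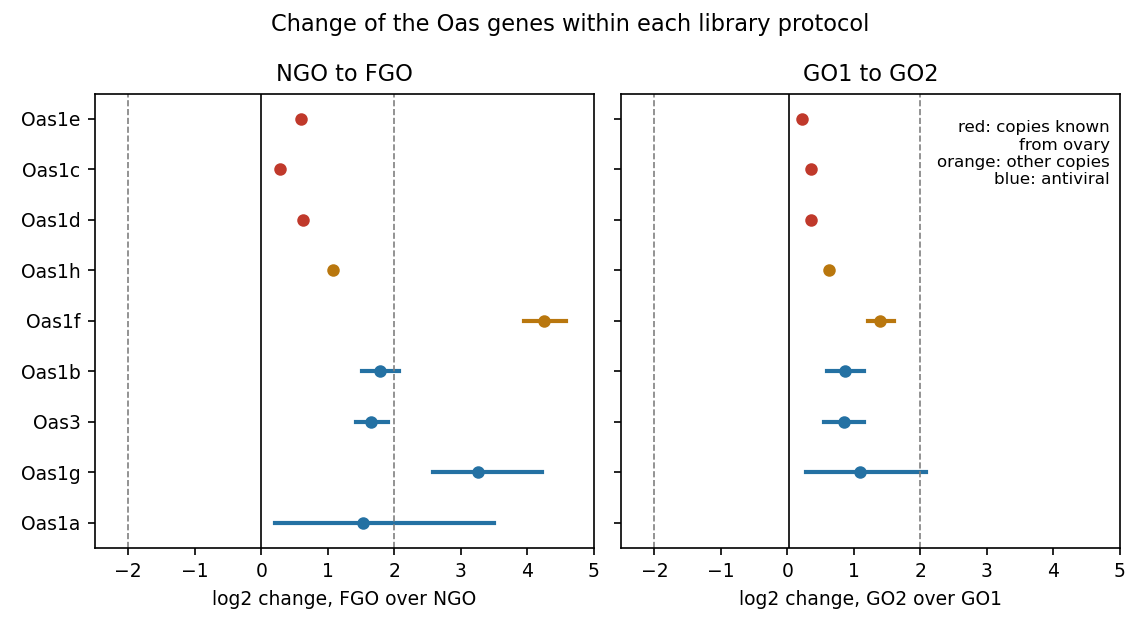
Log2 change of each member from NGO to FGO (left) and from GO1 to GO2 (right), with bars for the 95 % counting interval, a solid line at the median of all genes and dashed lines at 4-fold, and colours for the 3 classes of members (red for copies known from ovary, orange for Oas1f and Oas1h, blue for antiviral). All points lie above 0, and only Oas1f and Oas1g on the left lie past the dashed line at 4-fold.

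Over all 4 libraries, each of the 9 members with reads had its highest RPKM in FGO, which was so for 29.4 % of those 16682 genes. The lowest RPKM was in GO1 for 8 of the 9 (28.4 % of all genes), Oas1f being the exception. For Oas1b and Oas1g the intervals of NGO and GO1 overlap, as do those of Oas3 with counts divided by 4. For Oas1a the 0 counts in GO1 allow a level above that of GO2. Its intervals of NGO and FGO overlap, as do those of GO2 and FGO with counts divided by 4. Between GO1 and NGO or FGO, stage and protocol cannot be told apart. RPKM values are shares of a library, so a member can be higher because there is more of its RNA per oocyte or less of the other RNA, and these cannot be told apart.

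The genes whose pattern over the 4 libraries was most like that of Oas1e, the member with the highest level in FGO, were Lhfpl2, Lrp12, 2210403K04Rik, Anxa6 and Foxred2. The likeness was the root mean square difference of centred log2 values over 4 libraries, and it was between 0.0202 and 0.0245 for these 5 among 10748 genes ranked. Of the members, Oas1d was nearest, in place 84 (0.0711), and Oas1c was in place 2615. Many genes thus followed Oas1e more closely than its own relatives did, and with 4 points such likeness is a description only.

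The labelled cell type was checked against markers. All 11 oocyte markers, among them the zona pellucida genes Zp1, Zp2 and Zp3 and the growth factor gene Gdf9, had at least 20 RPKM in each library. The 6 stromal markers summed to 5.71 RPKM in NGO and to at most 0.245 in the others, with Col1a1 at 2.24 in NGO. The 8 granulosa markers summed to 5.83 RPKM in NGO, 11.9 in GO1, 16.4 in GO2 and 18.7 in FGO. Nr5a2 alone had 3.62, 9.57, 11.4 and 8.65 RPKM in these libraries. Cyp19a1 (aromatase) went from 0.518 RPKM in NGO to 6.08 in FGO, a 12.1-fold change in the same direction as Oas1f. Foxl2 had at most 0.0754 RPKM and a log2 change of -1.35 from NGO to FGO, and that of Inhba was 0.01. The median change of the 8 granulosa markers was 1.25. The part of granulosa cells in the values of Oas1f and the antiviral members was not tested, and in bulk samples fewer cells of a type and less RNA per cell cannot be told apart.

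Leukocytes and macrophages, which make much antiviral synthetase after interferon, had markers that summed to 0.825 RPKM in NGO, 0.558 in GO1, 0.652 in GO2 and 0.372 in FGO over the 7 genes matched, most of it from Cd68. Cd14 and Adgre1 had 0 counts in NGO, GO1 and GO2 and 1 count in FGO, and Ptprc had at most 0.0192 RPKM. Csf1r, a receptor of macrophages, went from 3 counts in GO1 to 58 in GO2 (log2 change 3.05, 1.69 to 5.63), in the same direction as the 8 members in that pair, and had 20 counts in NGO and 13 in FGO. The part of leukocytes in the values of the antiviral members was not tested. The 4 endothelial markers were mixed, with Pecam1 at 1.74 RPKM in NGO and 9.70 in FGO and Cdh5 at 0 in GO2 and FGO.

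Genes that act beside the synthetases were read at very different levels. Pde12, which degrades the 2′ to 5′ chains, had between 2.43 and 4.53 RPKM, and Abce1, a gene of ribosome recycling, had between 7.20 and 11.4. The mRNA decapping gene Dcp1a was abundant, between 58.9 and 105 RPKM, and Cnp had at most 0.253. Oasl1, a related gene whose protein lacks synthetase activity, had between 0.393 RPKM in GO1 and 0.763 in NGO in the 3 libraries before FGO, and its log2 change from NGO to FGO was 0.44 (0.19 to 0.70). None of these 5 genes passed 4-fold in either pair. Oasl2, a related synthetase gene, had 20 counts in GO1 and 4 in GO2 (-2.92, -5.29 to -1.71), and its 15 counts in NGO and 2 in FGO were too few for a change to be called.

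In the list of double-stranded RNA sensing and processing, 3 of 10 genes with 20 counts were higher by at least 4-fold from NGO to FGO. None was lower. Over all genes 8.57 % were higher and 5.54 % lower. Ddx58, which encodes the RNA sensor RIG-I, went from 0.281 to 1.41 RPKM (log2 change 2.38, 2.18 to 2.60). Tlr3, an endosomal receptor for double-stranded RNA, went from 3 counts to 116 (4.82, 3.63 to 7.51). Cgas, a DNA sensor whose enzyme fold is related to that of the synthetases, went from 3.30 to 13.1 RPKM (2.04, 1.96 to 2.13). Its interval reaches below 4-fold.

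Ifih1, encoding the sensor MDA5, had 3 counts in NGO and 0 in FGO. Eif2ak2, encoding the kinase PKR, was read at low levels, with 19 counts in NGO, 75 in GO1, 142 in GO2 and 33 in FGO, and at most 0.116 RPKM. Dicer1, which cuts double-stranded RNA into small RNAs, was the highest of the list at 44.3 RPKM in NGO, 73.0 in GO1, 62.2 in GO2 and 42.4 in FGO. From GO1 to GO2 none of 11 genes passed 4-fold, against 1.51 % higher and 0.254 % lower over all genes. The median change of the list was 0.41 from NGO to FGO and 0.18 from GO1 to GO2, against medians of -0.01 and 0.02 over all genes.

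Among interferon receptors and signalling genes, none of 11 was higher by at least 4-fold from NGO to FGO (8.57 % of all genes were). Lower were 2 (5.54 % of all genes). These were both chains of the receptor for interferon gamma, Ifngr1 (0.594 to 0.0206 RPKM, log2 change -4.61, -6.13 to -3.73) and Ifngr2 (0.993 to 0.121 RPKM, -2.96, -3.45 to -2.55). In this pair 5 of the 6 stromal markers were also lower by at least 4-fold, and Pdgfra changed by -0.27. From GO1 to GO2 Ifngr1 changed by -1.51 and Ifngr2 by -0.97, while the median of the 4 stromal markers with 20 counts was 0.35. The part of stromal cells in the values of Ifngr1 and Ifngr2 was not tested. For the type I receptor, Ifnar1 had between 5.56 and 7.27 RPKM, but its partner chain Ifnar2 had at most 9 counts in a library. Irf1, a transcription factor that acts at the element searched above, had 26.6 RPKM in NGO and 40.4 in FGO, whereas Irf7 had 9 counts in NGO and at most 1 in the others.

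Of 30 other interferon-stimulated genes, 29 were matched to the table (Ifi27 was not), and their median was 0.0501 RPKM in NGO, 0.0144 in GO1, 0.0154 in GO2 and 0.0211 in FGO. Isg15, among the most strongly induced of them in other tissues, was listed at 0 in all 4 libraries. An RPKM of 1 was reached by 4 of these genes in NGO, 5 in GO1, 4 in GO2 and 4 in FGO, against 36.6 to 38.5 % of all genes. Among them were Bst2 (6.47 in NGO and 8.37 in FGO) and Cmpk2 (3.45 and 9.49). From NGO to FGO, 3 of 16 with 20 counts were higher by at least 4-fold (8.57 % of all genes were). These were Mx1 (10 to 87 counts, log2 change 2.94, 2.11 to 4.17), Ifitm3 and Gbp3. Ifitm3 (0.814 to 4.08 RPKM, 2.36, 1.98 to 2.80) and Gbp3 (3 to 20 counts, 2.34, 0.92 to 5.07) had intervals reaching below 4-fold. Lower by at least 4-fold (5.54 % of all genes) were Trim25 (0.286 to 0.0436 RPKM, -2.62, -3.27 to -2.10) and Gbp2. Gbp2 had 34 counts in NGO and 0 in FGO. Against a floor of 3 counts it was 11.8-fold lower, but that floor is too small, so this is no lower bound. The median change was 0.17, and the list as a whole thus had calls in both directions.

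From GO1 to GO2, 1 of 14 such genes was higher and 1 was lower. Over all genes 1.51 % were higher and 0.254 % lower. Gbp3 had 0 counts in GO1 and 22 in GO2. Against a floor of 3 counts, which is too small, it was 3.76-fold higher, a value below the 4-fold threshold. Trim25 went from 31 to 14 counts (-2.01), with an interval (-3.13 to -1.16) that reaches below 4-fold.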

How the data were processed

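Oocytes were sequenced as 4 libraries, 1 per stage. Per the submitters' processing notes and the study's methods, the authors trimmed reads with Trim Galore 0.2.8 and mapped them to GRCm38 with TopHat2 2.0.9, keeping 1 alignment for a read that had several. The deposited values are RPKM, although the file is named for read counts, and the program, annotation and strand setting behind them are not given in the sources used here.

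For one-exon genes, 99.45 to 99.72 % of values came out whole, within 0.05 of a count, after multiplying RPKM by exon length and the value of 1 read. Counts were recovered in this way for all genes, with exon lengths from GENCODE, or with the smallest length that gave whole counts where no GENCODE length did (Oas1e, Oas1h and Oas3), so these counts are the fewest possible. Totals were 110595206 to 241385709 per library, of which 63861921 to 140787276 were on genes, and 16564 to 18105 genes had at least 3 counts. In each library the total is larger than the uniquely mapped reads, and even than the raw reads, that the study lists, so recovered counts are not independent reads and intervals are too narrow. For the members, intervals were therefore also computed with counts divided by 4.

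Poisson 95 % intervals were computed for levels and exact conditional binomial intervals for ratios, with Python 3.11.15, numpy 2.4.6, scipy 1.17.1, pandas 2.3.3 and matplotlib 3.10.9. Changes used a trimmed mean of ratios over the whole table, a prior count of 1 and genes whose counts in the pair came to 20 or more, and called means 4-fold. The calculations were tested on simulated data. Coding sequences and promoters were aligned with Biopython 1.88. No p-value was computed. No per-sample column was left out (0 of another series). The design foresaw either counts or values from which counts are recovered.

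Named were each member, list genes past 4-fold or with a described role, and the 5 genes, of those counted 100 times or more in each library, nearest in pattern to the member highest in FGO, by centred log2(RPKM + 0.1). The members and gene lists were chosen with earlier results of these data known. Other thresholds, scalings, prior counts and pseudocounts were tried as alternatives. 1 gene of the lists is not reported here.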

Additional observations from a re-analysis of the deposited data

How the results depend on the processing

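There are no replicates, and depth limits Oas1a, Oas1g and Oas2. No paired analysis was possible because the result comes from no test and each group has 1 library. None of 68 recomputed log2 changes of members reversed, and another scaling moved them by at most 0.14. At a threshold of 2-fold, 6 members were higher from NGO to FGO and 2 from GO1 to GO2, and of the pathway genes 9 were lower from NGO to FGO and 4 higher from GO1 to GO2. With a minimum of 3 counts in the pair, 1 member (Oas1a) passed 4-fold from GO1 to GO2, with 0 and 4 counts, which rests on the prior count and is no rise against the floor of 3 counts. With library totals alone, 1 pathway gene was lower from GO1 to GO2. Of the summed family, Oas1c, Oas1d and Oas1e made up 90.8 % in NGO, 92.5 % in GO1, 90.5 % in GO2 and 86.4 % in FGO when counts not divided by length were summed, and 99.9 %, 99.9 %, 99.8 % and 99.7 % when Oas1f and Oas1h were left out. The other 42 of 56 recomputed values, all counts of genes, were within 1.5 times of the reported ones. Leaving out a replicate was not possible. On log2(RPKM + 1) the change of Oas1g from NGO to FGO was 0.57 and that of Oas1f 2.86. With counts divided by 4, added after seeing the data, 68 of 74 pairs of member levels stayed apart.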
